A study of Mus musculus with 24 samples.

Results

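The effect of intestinal Abca1 deletion was compared between the ileum and the liver of mice that had received vehicle. The difference between Villin-Cre and floxed libraries was taken in each tissue, and the 2 differences were then set side by side gene by gene. Of the 24 libraries in the study, 12 entered as the compared samples, and 16322 of the 40481 genes in the files passed the filter on low values in both tissues. Villin-Cre mice carried 2 floxed Abca1 alleles and a Cre that removes the gene where the Villin promoter is active, mainly in the epithelium of the gut (ileum, n = 3 libraries; liver, n = 3). The mice they were compared with carried the same floxed alleles without Cre (ileum, n = 3; liver, n = 3). All were of the C57BL/6 strain, all had lost 75% of the small bowel to surgery, and were studied over the 10 weeks that followed the operation. The vehicle was 0.5% carboxymethyl cellulose by mouth, and the other 12 libraries came from mice given the LXR agonist GW3965 at 1 mg/kg in the same vehicle. Mice without resection and mice with Cre but no floxed allele were not analysed here. Nothing in the labels says which animal a library came from. The p-values and standard errors thus reflect only how far libraries vary within groups, possibly for technical reasons. That spread was estimated with the GW3965 libraries included. Ileum and liver libraries with the same number cannot be taken as 1 mouse.

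ABCA1 is a membrane transporter that moves cholesterol and phospholipid out of cells onto apolipoprotein A-I, the first step in making high-density lipoprotein. The gut and the liver are the main sources of that lipoprotein, and both tissues regulate Abca1 through the oxysterol receptors LXR-alpha and LXR-beta. The liver receives the portal blood that drains the bowel. Villin itself is a protein of the intestinal brush border.

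The vehicle libraries held 17.1 to 19.5 M reads in Villin-Cre ileum, 17.0 to 20.3 M in floxed ileum, 28.0 to 32.0 M in Villin-Cre liver and 27.6 to 30.5 M in floxed liver. Markers fitted the labelled tissues: 8 genes of ileal epithelium summed to 6411 to 6713 CPM (reads of a gene per M reads assigned) in Villin-Cre ileum and 6134 to 6252 CPM in floxed ileum, against 54.2 to 58.0 CPM in Villin-Cre liver and 51.3 to 54.1 CPM in floxed liver, where the ileal genes Fabp6 and Cdx1 were at 0. Libraries of 1 vehicle group differed by 2.49 to 4.42 times the variance of read counting alone, whereas libraries of different genotype differed by 19.2 to 26.3 times (ileum) and 47.8 to 51.3 times (liver). CPM values carry no correction for composition, and the median log2 fold change over all genes tested was -0.20 in the ileum and 0.28 in the liver. Counts are therefore also given with libraries rescaled by the median of gene ratios, after which both medians were 0.02.

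Abca1 (chr4:53030787-53159895, GRCm38, minus strand) was lower in Villin-Cre mice in both tissues. In the ileum it stood at 25.7, 30.6 and 28.5 CPM in Villin-Cre libraries, against 59.9, 57.4 and 54.2 CPM in floxed libraries, a log2 fold change of -1.01 ± 0.14 (SE; limma, adjusted p = 3.5e-05). In the liver it stood at 225.0, 225.4 and 225.0 CPM in Villin-Cre libraries and at 327, 342 and 337 CPM in floxed libraries, a log2 fold change of -0.57 ± 0.04 (limma, adjusted p = 1.7e-08). Neither tissue had overlapping groups. The ileum's fall exceeded the liver's by 0.43 on the log2 scale (difference -0.43 ± 0.17, limma, adjusted p = 0.03), but with rescaled libraries the log2 fold changes were -0.76 in the ileum and -0.86 in the liver and the difference did not pass (0.10, adjusted p = 0.65). The values cover all exons of the gene, and the sources used here do not give which of them lie between the loxP sites.

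Genotype separated the libraries of each tissue at many genes. In the ileum 7527 of 18656 genes tested passed (40.3%; 9.61%, or 1792, higher and 30.7%, or 5735, lower in Villin-Cre), and in the liver 9951 of 17520 (56.8%; 45.1%, or 7894, higher and 11.7%, or 2057, lower). Of the 16322 genes tested in both, 4569 passed in both: 1392 shifted the same way (8.53%; 754 higher, 4.62%, and 638 lower, 3.91%) and 3177 shifted oppositely (19.5%; 242 higher in the ileum and lower in the liver, 1.48%, and 2935 the reverse, 18%). Another 5486 genes (33.6%) passed in 1 tissue with the difference between tissues also past the threshold: 253 higher (1.55%) and 1579 lower (9.67%) in the ileum, 3112 higher (19.1%) and 542 lower (3.32%) in the liver. In neither tissue did 4522 pass. Among genes tested in both, those called in both made up 66.1% of those called in the ileum and 48.3% of those called in the liver. Across the 16322 genes, which share libraries and are not independent, the log2 fold changes of the 2 tissues had a Pearson r of 0.04 and a Spearman rho of 0.04. The difference itself passed at 9661 genes (59.2%), with the ileum's effect above the liver's at 1235 (7.57%) and below it at 8426 (51.6%).

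The directions of these counts moved with the scaling. With rescaled libraries 3751 genes were higher and 2732 lower in the ileum, and 3792 higher and 3897 lower in the liver, so that the excess of lower genes in the ileum turned round and that of higher genes in the liver was gone. The ileum's effect was then above the liver's at 3289 genes and below it at 3078, and genes that passed in 1 tissue were 806 higher and 799 lower in the ileum and 1140 higher and 1247 lower in the liver. With rescaled libraries 1694 genes shifted the same way (1015 higher, 6.22%, and 679 lower, 4.16%) and 1539 oppositely (872 higher in the ileum, 5.34%, and 667 higher in the liver, 4.09%), so that 52.4% of the genes called in both moved the same way, against 30.5% without rescaling. At 2-fold or more in both tissues, 92 genes shifted the same way (0.564%; 25 higher and 67 lower) and 89 oppositely (0.545%; 19 higher in the ileum and 70 higher in the liver). After rescaling these were 97 (30 higher and 67 lower) and 73 (49 higher in the ileum and 24 higher in the liver), so the 19 and the 70 depend on the scaling. Genes chosen for passing at 2-fold nearly always have separate groups: the genotypes' libraries did not overlap in either tissue at the 25, 67 and 19 genes, nor at the 70 in the ileum, nor at 69 of the 70 in the liver, where 54.5% of all genes had no overlap in the ileum and 68.5% in the liver. When libraries that lay close together within a group were averaged to 1 unit, which leaves 1 residual degree of freedom a tissue, 6 genes passed in the ileum and 206 in the liver, with Mt1 the single gene shifted the same way and Mt2 the single gene shifted oppositely. The spread in that fit comes only from the 2 floxed GW3965 units of each tissue, as each vehicle group is then 1 unit. It therefore holds no variation between vehicle libraries and cannot show how firm the vehicle effects are.

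**Figure D1:**
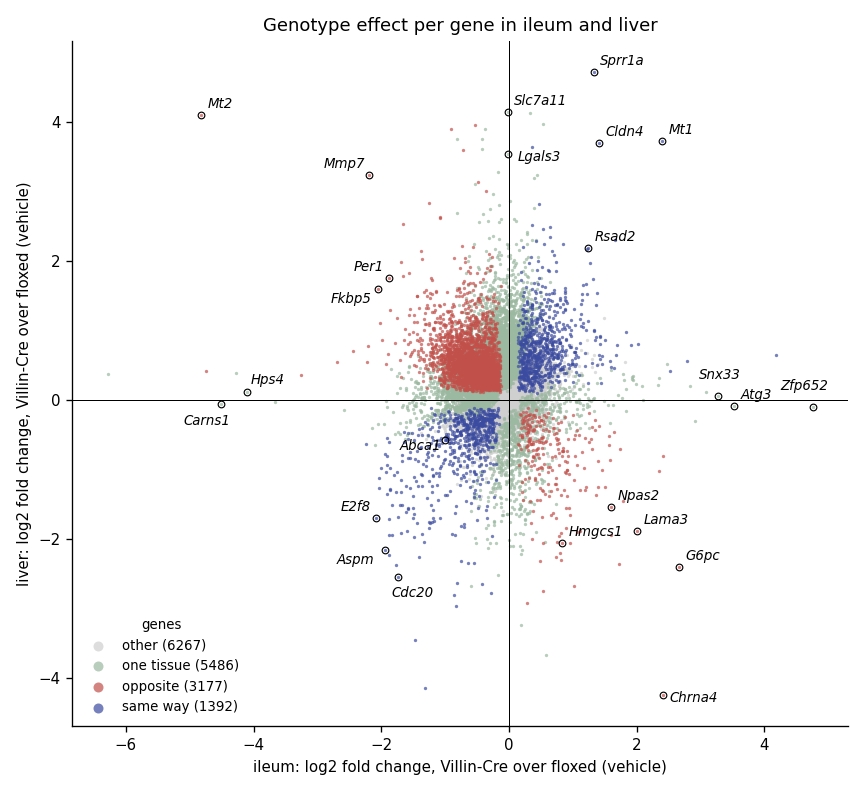
Each point is 1 of the 16322 genes tested in both tissues, with its log2 fold change between Villin-Cre and floxed vehicle libraries in the ileum (x axis) and in the liver (y axis), coloured by whether it shifted the same way (1392), oppositely (3177), in 1 tissue (5486) or otherwise. The cloud shows no diagonal trend (Pearson r 0.04), and Mt1 and Mt2 lie far apart in the upper right and the upper left.

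The 2 metallothioneins, Mt1 and Mt2, are small cysteine-rich proteins that bind zinc and copper. Mt1 (chr8:94179082-94180327, plus strand) rose in both tissues. In the ileum it had 549, 569 and 581 CPM in Villin-Cre libraries, against 111, 95.8 and 115 CPM in floxed libraries (log2 fold change 2.40 ± 0.06). In the liver it had 382, 385 and 387 CPM in Villin-Cre libraries, against 26.5, 28.7 and 31.0 CPM in floxed libraries (3.72 ± 0.12). The groups lay far apart in both tissues, and the liver's rise was the larger (difference -1.32 ± 0.14, limma, adjusted p = 2.7e-08). Mt2 (chr8:94172664-94173568, plus strand), the neighbouring gene, fell in the ileum, with 2.11, 1.93 and 1.78 CPM in Villin-Cre libraries, against 68.8, 68.3 and 67.9 CPM in floxed libraries (-4.82 ± 0.13). In the liver it rose with Mt1, to 249, 243 and 234 CPM in Villin-Cre libraries, against 12.0, 15.2 and 14.2 CPM in floxed libraries (4.09 ± 0.08). The difference between tissues for Mt2 was -8.91 ± 0.15 on the log2 scale. Both genes are known targets of the zinc sensor MTF1 and of the glucocorticoid receptor.

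The promoters of the pair are shown because the genes lie side by side and part ways in the ileum. Each sequence runs from 250 bases before to 30 after the RefSeq start site on GRCm38.p6, and capitals mark the cores of the metal response element, TGCACNC or TGCGCNC on either strand. Both promoters hold such cores, 3 in Mt1 and 4 in Mt2, and 24.1% of the 32817 RefSeq promoters of the same length hold at least 1.
Mt1, chr8:94178839-94179118, plus strand: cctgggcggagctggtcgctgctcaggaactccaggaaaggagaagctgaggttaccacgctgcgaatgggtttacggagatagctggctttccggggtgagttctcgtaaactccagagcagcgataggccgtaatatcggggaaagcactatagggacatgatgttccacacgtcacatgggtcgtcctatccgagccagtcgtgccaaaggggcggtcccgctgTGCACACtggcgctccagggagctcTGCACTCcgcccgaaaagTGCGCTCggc
Mt2, chr8:94172368-94172647, plus strand: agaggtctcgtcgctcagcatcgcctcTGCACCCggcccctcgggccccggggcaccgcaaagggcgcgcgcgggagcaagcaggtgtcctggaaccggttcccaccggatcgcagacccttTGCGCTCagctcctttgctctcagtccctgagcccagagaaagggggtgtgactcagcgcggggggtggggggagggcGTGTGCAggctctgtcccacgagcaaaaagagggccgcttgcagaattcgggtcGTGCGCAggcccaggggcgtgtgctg

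**Figure D2:**
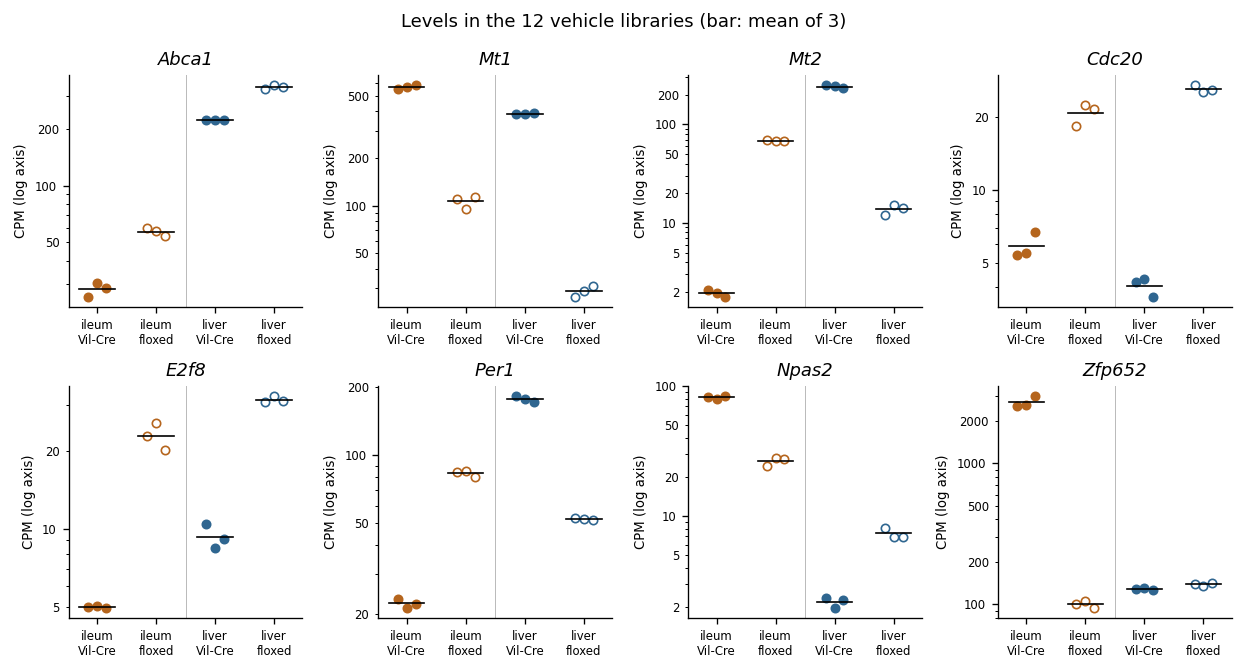
CPM on a log axis in each of the 12 vehicle libraries for 8 genes, Villin-Cre (filled) left of floxed (open) in ileum (brown) and liver (blue), with bars at the mean of 3. Mt1, Cdc20 and E2f8 separate the genotypes in the same direction in both tissues, Mt2, Per1 and Npas2 in opposite directions, and Zfp652 in the ileum.

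Of the 25 genes higher by at least 2-fold in both tissues, the 12 ranked first by the smaller of their changes include Mt1, Rsad2 and those that follow here. Cldn4, a tight junction claudin, had 40.1, 41.5 and 42.3 CPM in Villin-Cre ileum, against 14.3, 16.7 and 14.6 CPM in floxed ileum. Liver levels were 14.0, 14.9 and 13.7 CPM in Villin-Cre libraries and 1.16, 0.131 and 0.885 CPM in floxed libraries. Its log2 fold changes were 1.41 ± 0.17 in the ileum and 3.70 ± 0.34 in the liver. It is also 1 of 9 bile duct cell markers, of which 8 rose and none fell in the liver (median 1.01; summed level 327 to 329 CPM in Villin-Cre, 154 to 159 CPM in floxed), 6 and 1 after rescaling. Of all genes tested in the liver, 45.1% rose and 11.7% fell. The part of bile duct cells in the liver value of Cldn4 was not tested. Sprr1a, a small proline-rich protein of stressed epithelium, rose by 1.33 ± 0.25 on the log2 scale in the ileum, where no library exceeded 2.34 CPM, and by 4.72 ± 0.20 in the liver, with 290.4, 279.7 and 284 CPM in Villin-Cre libraries against 10.8, 10.0 and 10.1 CPM in floxed libraries. Saa1, an acute phase apolipoprotein with a near copy in Saa2, rose by 1.32 in the ileum and 1.74 in the liver. Slpi, a secreted protease inhibitor, rose by 1.20 and 1.66, and Siglecf, a sialic acid receptor of eosinophils, by 1.38 and 1.53. Sh2d6, Rassf10, Zfp469, Bco1 and Meltf had log2 fold changes of 1.22 to 1.66 (ileum) and 1.36 to 2.30 (liver).

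Rsad2, which encodes the antiviral enzyme viperin, had 13.2, 14.8 and 12.4 CPM in Villin-Cre ileum, against 5.93, 5.29 and 4.99 CPM in floxed ileum (log2 fold change 1.24 ± 0.16). Its liver levels were 55.5, 58.4 and 57.3 CPM in Villin-Cre libraries and 13.1, 12.0 and 11.3 CPM in floxed libraries (2.19 ± 0.09). The genotypes did not overlap in either tissue. Among 25 type I interferon response genes, 8 rose and 2 fell in the ileum (median 0.23, against -0.20 over all genes) and 20 rose and 1 fell in the liver (median 0.87, against 0.28). Of all genes, 9.61% rose and 30.7% fell in the ileum, and 45.1% rose and 11.7% fell in the liver. After rescaling 13 of the list rose and 2 fell in the ileum, and 14 rose and 4 fell in the liver. Of the 25, 7 rose in both tissues, with Ifit1 at 0.90 and 1.41 and Oasl1 at 0.70 and 1.53 beside Rsad2, while Mx2 fell by 1.00 in the ileum and rose by 0.38 in the liver. After rescaling 8 rose and 1 fell in both, 2 were higher in the ileum and lower in the liver, and none was the reverse. The share of all genes that rose in both was 4.62%, and 6.22% after rescaling. The Rsad2 promoter holds the motif GAAANNGAA, most of the core of the interferon-stimulated response element, once on the minus strand (capitals). That motif was in 10 of the 16 listed genes with a RefSeq promoter and in 8.05% of all promoters of that length.
Rsad2, chr12:26456423-26456702, minus strand: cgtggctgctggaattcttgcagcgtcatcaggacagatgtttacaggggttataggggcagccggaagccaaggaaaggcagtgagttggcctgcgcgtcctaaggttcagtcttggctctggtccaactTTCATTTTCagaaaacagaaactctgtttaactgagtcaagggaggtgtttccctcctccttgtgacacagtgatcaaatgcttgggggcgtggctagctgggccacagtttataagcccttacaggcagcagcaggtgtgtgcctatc

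Interferon-gamma response genes were next. Of 17 such genes, 12 fell and none rose in the ileum (median -0.72; 30.7% of all genes fell), and 15 rose and none fell in the liver (median 0.80; 45.1% of all genes rose). In all, 11 were lower in the ileum and higher in the liver, beside 18% of all genes, and 6 after rescaling, beside 4.09%. Igtp, an immunity-related GTPase, had 57.7, 49.4 and 56.7 CPM in Villin-Cre ileum and 118, 128 and 116 CPM in floxed ileum. In the liver it had 59.4, 60.5 and 60.8 CPM in Villin-Cre libraries and 20.5, 21.0 and 18.8 CPM in floxed libraries. Tgtp1, a T cell-induced GTPase, fell by 1.66 in the ileum and rose by 1.78 in the liver on the log2 scale. The immunoproteasome subunit Psmb8 was at -0.75 in the ileum and 0.76 in the liver, and the peptide transporter Tap1 at -0.66 and 1.19. The GTPase families have near-identical copies, so the share of reads counted for each member is uncertain.

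More matrix genes rose than fell in both tissues. Of 27, 8 rose and none fell in the ileum (median 0.21; 9.61% of all genes rose), and 25 rose and 1, Fn1, fell in the liver (median 0.87; 45.1% of all genes rose). The 8 that rose in the ileum also rose in the liver, and 15 rose in both after rescaling, beside 4.62% and 6.22% of all genes. In the liver 5 of 7 stellate cell markers also rose (median 0.73; summed level 653 to 656 CPM in Villin-Cre, 435 to 443 CPM in floxed), and 6 of 9 smooth muscle markers (median 0.78; 233 to 238 CPM in Villin-Cre, 192 to 202 CPM in floxed). Their part in the matrix values was not tested. Col1a1, a chain of type I collagen, had 366, 336 and 373 CPM in Villin-Cre ileum, against 193, 186 and 207 CPM in floxed ileum. The liver had 217, 213 and 211 CPM in Villin-Cre libraries, against 83.2, 86.4 and 87.7 CPM in floxed libraries. Its log2 fold changes of 0.88 ± 0.20 and 1.31 ± 0.09 did not differ past the threshold (difference -0.43 ± 0.25, limma, adjusted p = 0.14). Thbs1, which encodes thrombospondin-1, was at -0.18 in the ileum, where it did not pass, and rose by 2.08 in the liver.

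The genes lower in both tissues were led by regulators of mitosis. Ccnb2, cyclin B2, had 4.27, 4.21 and 5.01 CPM in Villin-Cre ileum, against 18.0, 19.8 and 16.0 CPM in floxed ileum (log2 fold change -1.88 ± 0.21). Liver levels were 2.03, 2.88 and 2.28 CPM in Villin-Cre libraries and 11.2, 10.1 and 10.6 CPM in floxed libraries (-1.95 ± 0.16). The difference between tissues, 0.07 ± 0.27, did not pass. Cdc20, an activator of the anaphase-promoting complex, had 5.40, 5.49 and 6.73 CPM in Villin-Cre ileum and 18.4, 22.5 and 21.6 CPM in floxed ileum (-1.74 ± 0.18). In the liver it had 4.20, 4.31 and 3.64 CPM in Villin-Cre libraries and 27.0, 25.2 and 25.9 CPM in floxed libraries (-2.55 ± 0.10), the larger fall of the pair (difference 0.80 ± 0.21, limma, adjusted p = 0.0019). E2f8, a repressor in the E2F family, fell by 2.08 in the ileum and by 1.71 in the liver, and Aspm, Hmmr, Cdca3, Cenpf, Knstrn, Ccnb1, Tpx2 and Ckap2l, which act in spindle and chromosome segregation or the entry to mitosis, by 1.59 to 1.94 and by 1.62 to 2.38. Aspg, an asparaginase, is the 1 gene of those 12 outside the cell cycle, at -1.74 and -1.69.

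Of 24 cell cycle genes, all 24 fell in the ileum (median -1.59) and 16 fell and 2 rose in the liver (median -0.80). For comparison, 30.7% of all genes fell in the ileum, and 11.7% fell and 45.1% rose in the liver. The 16 fell in both tissues, 9 of them by at least 2-fold in both, and 17 fell in both after rescaling. The shares of all genes that fell in both were 3.91% and, after rescaling, 4.16%. The genes of mitosis and those of DNA replication parted in the liver: the helicase subunits Mcm2, Mcm3, Mcm4, Mcm5 and Mcm6 fell by 1.11 to 1.57 in the ileum but were at 0.13 to 0.63 in the liver, where Mcm2 passed, and Pcna, the sliding clamp, fell by 0.76 in the ileum and rose by 0.53 in the liver. After rescaling neither Mcm2 nor Pcna rose in the liver. The summed level of the list was 245 to 258 CPM in Villin-Cre ileum and 758 to 815 CPM in floxed ileum, against 203 to 217 CPM in Villin-Cre liver and 331 to 332 CPM in floxed liver. In bulk tissue, fewer cells of a type and less RNA per cell cannot be told apart. The Ccnb2 and Cdc20 promoters are shown with the cell cycle homology region letters TTTGAA in capitals. That motif was in 8 of the 21 listed genes with a RefSeq promoter and in 17.2% of all promoters of that length.
Ccnb2, chr9:70421525-70421804, minus strand: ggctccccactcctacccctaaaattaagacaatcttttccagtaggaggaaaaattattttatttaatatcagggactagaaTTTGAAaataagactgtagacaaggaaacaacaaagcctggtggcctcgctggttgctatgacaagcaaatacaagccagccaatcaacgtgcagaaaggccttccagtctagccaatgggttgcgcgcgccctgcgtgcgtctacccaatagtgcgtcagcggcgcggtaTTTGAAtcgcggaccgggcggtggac
Cdc20, chr4:118437314-118437593, minus strand: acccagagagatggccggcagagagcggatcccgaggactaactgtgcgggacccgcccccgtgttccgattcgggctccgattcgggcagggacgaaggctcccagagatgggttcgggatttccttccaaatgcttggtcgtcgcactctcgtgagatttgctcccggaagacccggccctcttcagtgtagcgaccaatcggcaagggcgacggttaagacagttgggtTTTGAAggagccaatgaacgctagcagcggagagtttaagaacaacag

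Fatty acid and triglyceride synthesis also fell on both sides, more in the liver. Of 19 genes, 13 fell and 3 rose in the ileum (median -0.50) and 16 fell and none rose in the liver (median -1.46). Among all genes tested, 30.7% fell and 9.61% rose in the ileum, and 11.7% fell and 45.1% rose in the liver. In both tissues 11 fell, and 7 did after rescaling, beside 3.91% and 4.16% of all genes. Fasn, fatty acid synthase, had 308, 292 and 320.2 CPM in Villin-Cre ileum, against 546, 537 and 591 CPM in floxed ileum. Liver levels were 720.5, 713 and 702 CPM in Villin-Cre libraries, against 5025, 5033 and 5014 CPM in floxed libraries. The log2 fold changes were -0.86 ± 0.09 in the ileum and -2.82 ± 0.25 in the liver (difference 1.96 ± 0.29, limma, adjusted p = 3.9e-06). Acly, which makes cytosolic acetyl-CoA, was at -0.55 and -2.35, and the desaturase Fads2 at -1.25 and -1.17. Fasn and Abca1 are also LXR targets. Of 18 LXR targets tested in both tissues, 5 fell in both and 3 did after rescaling, beside the same 3.91% and 4.16% of all genes. Among the 18, the transporters Abcg5 and Abcg8 rose in the ileum (0.27 and 0.21) and fell in the liver (-0.41 and -0.53).

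Cholesterol synthesis and uptake genes, the targets of SREBP2, split by tissue. Of 25, 15 rose and 3 fell in the ileum (median 0.29), and 24 fell and none rose in the liver (median -1.51). In all, 14 were higher in the ileum and lower in the liver, a class that held 1.48% of all genes. With rescaled libraries, 20 of the 25 were in that class, beside 5.34% of all genes. Hmgcs1, the HMG-CoA synthase of the pathway, had 434, 433 and 435 CPM in Villin-Cre ileum, against 239.7, 253 and 235 CPM in floxed ileum. Its liver levels were 248, 248 and 248 CPM in Villin-Cre libraries and 1009.9, 1029 and 1069 CPM in floxed libraries. Its log2 fold changes were 0.84 ± 0.08 and -2.06 ± 0.39, with errors estimated over all 12 libraries of each tissue. Insig1, which holds SREBPs in the endoplasmic reticulum, was at 0.78 and -1.96, Fdft1, squalene synthase, at 0.73 and -1.70, and Mvd at 0.76 and -2.04. Ebp and Acat2, also of sterol metabolism, fell in both. The Hmgcs1 promoter holds the sterol response element letters TCACNCCAC once (capitals). Of the 17 listed genes with a RefSeq promoter, Hmgcs1 is the only 1 with these letters, which 1.18% of all promoters of that length hold.
Hmgcs1, chr13:119690101-119690380, plus strand: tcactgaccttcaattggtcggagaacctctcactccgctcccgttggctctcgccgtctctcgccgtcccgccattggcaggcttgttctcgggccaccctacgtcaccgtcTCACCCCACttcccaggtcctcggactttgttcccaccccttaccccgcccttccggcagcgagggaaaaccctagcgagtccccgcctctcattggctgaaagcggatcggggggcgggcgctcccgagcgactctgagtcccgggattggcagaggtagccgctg

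Apolipoproteins differed from gene to gene. Apoa1, the protein that accepts ABCA1's lipid, had 2867, 2826 and 2926 CPM in Villin-Cre ileum, against 1184, 1097 and 1218 CPM in floxed ileum (log2 fold change 1.30 ± 0.08). In the liver it had 6457, 6473 and 6411 CPM in Villin-Cre libraries and 8645, 8445 and 8311 CPM in floxed libraries (-0.39 ± 0.09). Its neighbour Apoa4 rose by 1.49 ± 0.26 in the ileum and was at 1.17 ± 0.50 in the liver, which did not pass (limma, adjusted p = 0.061). Of 14 apolipoprotein and HDL genes, 4 rose and 3 fell in the ileum (median 0.01) and none rose and 10 fell in the liver (median -0.40). All genes together had 9.61% higher and 30.7% lower in the ileum, and 45.1% higher and 11.7% lower in the liver. With rescaled libraries, 4 of the 14 rose and 2 fell in the ileum, and none rose and 12 fell in the liver.

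**Figure D3:**
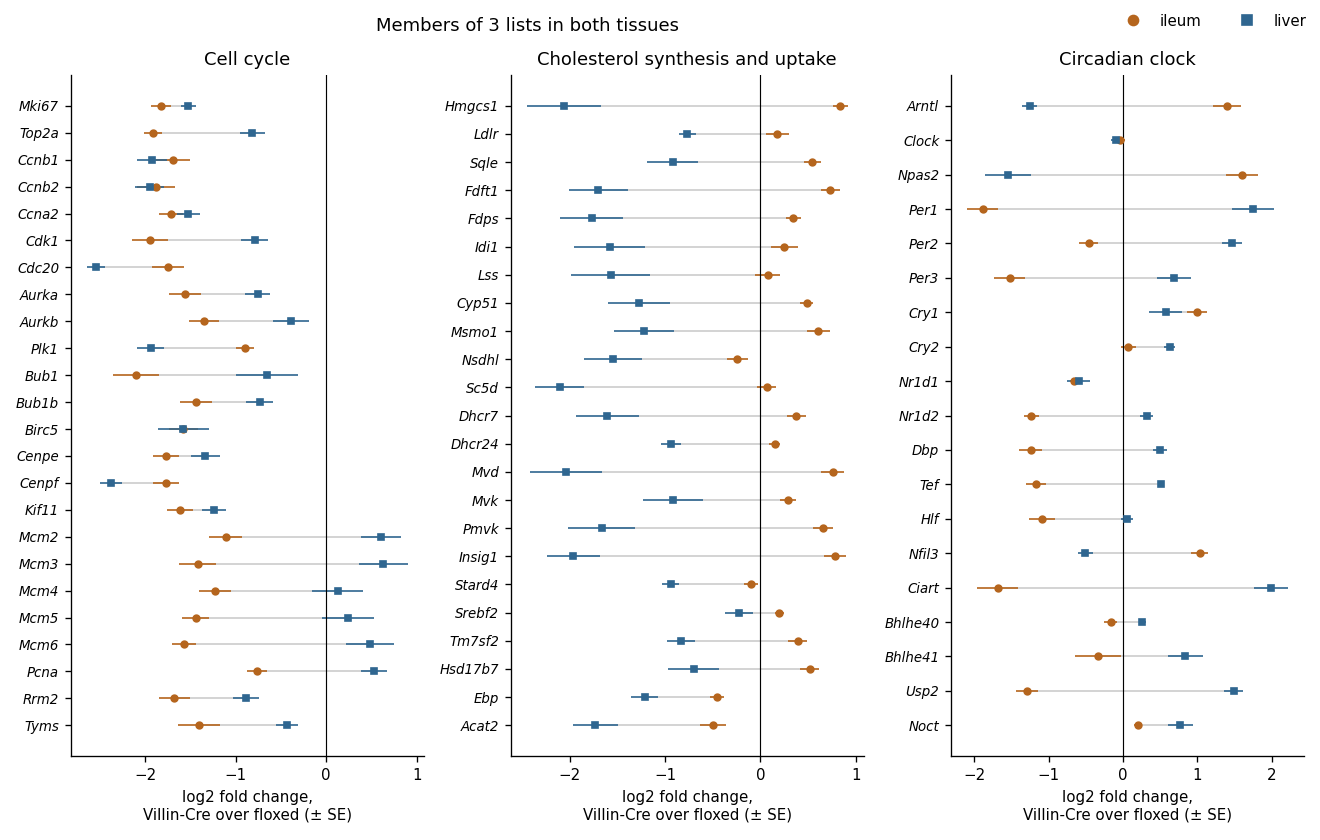
Log2 fold change of Villin-Cre over floxed vehicle libraries (± SE, limma) for each member of the cell cycle (24), cholesterol (23) and circadian clock (19) lists that is plotted, in the ileum (brown circles) and in the liver (blue squares). Ileum values of the cell cycle genes all lie below 0 with Mcm2 to Mcm6 above 0 in the liver before rescaling, cholesterol genes in the liver all lie below 0, and the clock genes fall on both sides.

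Among the 19 genes at least 2-fold higher in the ileum and lower in the liver, 8 were named by rank. G6pc, the glucose-6-phosphatase that releases glucose, had 18.0, 19.1 and 17.1 CPM in Villin-Cre ileum, against 2.52, 2.41 and 2.31 CPM in floxed ileum (log2 fold change 2.67 ± 0.14). The liver had 59.0, 54.4 and 58.9 CPM in Villin-Cre libraries, against 299.8, 305 and 311 CPM in floxed libraries (-2.40 ± 0.11). Slc2a2, the glucose transporter GLUT2, had 11.7, 12.4 and 11.8 CPM in Villin-Cre ileum and 3.70, 4.06 and 2.00 CPM in floxed ileum, with 110.1, 110.0 and 107 CPM in Villin-Cre liver and 292, 301 and 307 CPM in floxed liver. For both genes the order of the genotypes turned over between tissues without overlap. Chrna4, a nicotinic receptor subunit, was at 2.41 and -4.25, Pnpla3, a lipid droplet lipase, at 1.73 and -2.37, the steroid dehydrogenase Hsd3b3 (a family with near-identical copies) at 1.61 and -1.94, and Sdr9c7 at 1.37 and -1.37. Lama3, a chain of laminin-332, had 215, 213 and 218 CPM in Villin-Cre ileum, against 49.5, 54.8 and 55.8 CPM in floxed ileum, and fell by 1.89 in the liver, where no library exceeded 5.42 CPM. Its partner chain Lamb3 rose by 1.63 in the ileum and was at -0.08 in the liver.

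Of 20 circadian clock genes, 12 shifted oppositely in the 2 tissues and 3 the same way, and after rescaling 9 and 4 did. The clock runs on a loop in which ARNTL, with CLOCK or NPAS2, activates the Per and Cry genes, whose products inhibit it. Npas2 had 82.4, 79.3 and 83.7 CPM in Villin-Cre ileum, against 24.3, 28.0 and 27.6 CPM in floxed ileum, and 2.35, 1.97 and 2.25 CPM in Villin-Cre liver, against 8.15, 6.93 and 6.94 CPM in floxed liver. Per1 did the reverse, with 23.3, 21.3 and 22.1 CPM in Villin-Cre ileum, against 84.7, 84.9 and 80.2 CPM in floxed ileum, and 182, 177 and 172 CPM in Villin-Cre liver, against 52.9, 52.3 and 51.7 CPM in floxed liver. Arntl followed Npas2, with means of 39.1 ± 4.42 CPM in Villin-Cre ileum and 14.5 ± 1.39 CPM in floxed ileum, and of 8.02 ± 0.558 CPM in Villin-Cre liver and 19.8 ± 1.26 CPM in floxed liver (SD, n = 3), and Ciart, a repressor of the loop, followed Per1 (-1.69 and 1.99). Of 20 clock genes, 4 were higher in the ileum and lower in the liver (among them Arntl, Npas2 and Nfil3) and 8 the reverse (Per1, Per2, Per3, Nr1d2, Dbp, Tef, Ciart and Usp2), 5 and 4 after rescaling. Of all genes, 1.48% were in the first class and 18% in the second, and 5.34% and 4.09% after rescaling. Cry1 and Noct rose in both and Nr1d1 fell in both. The sources used here do not give the hour at which each tissue was taken.

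Genes that glucocorticoids induce were followed as well. Fkbp5, a chaperone of the steroid receptor, had 15.9, 15.4 and 14.7 CPM in Villin-Cre ileum, against 60.5, 66.4 and 68.3 CPM in floxed ileum, and 129, 133 and 131 CPM in Villin-Cre liver, against 44.2, 42.7 and 43.0 CPM in floxed liver. Of 11 such genes, 3 rose and 7 fell in the ileum (median -0.63) and 9 rose and none fell in the liver (median 1.18). Shares of all genes were 9.61% higher and 30.7% lower in the ileum, and 45.1% higher and 11.7% lower in the liver. The list includes Mt1, Mt2 and genes shared with other responses. Of the 11, 5 were lower in the ileum and higher in the liver and 3 rose in both, beside 18% and 4.62% of all genes. After rescaling 2 were opposite, 4 rose in both and 1 fell in both, so same-way genes were then the more numerous. The rescaled shares of all genes were 4.09% in that opposite class, 6.22% higher in both and 4.16% lower in both. Sgk1, a kinase of sodium transport, rose in both (0.83 and 1.02). Among 14 immediate early genes, which respond within minutes to stimuli, 6 rose and 2 fell in the ileum (median 0.31) and 12 rose and none fell in the liver (median 1.43), with 4 higher in both, where 9.61% of all genes rose in the ileum, 45.1% in the liver and 4.62% in both. Myc, a growth regulator, was opposite, with 8.27, 8.41 and 8.34 CPM in Villin-Cre ileum, against 25.5, 27.2 and 24.7 CPM in floxed ileum, and 83.2, 85.2 and 79.8 CPM in Villin-Cre liver, against 23.4, 22.7 and 23.2 CPM in floxed liver.

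Cytosolic ribosomal protein genes moved as a block. Of 85, 83 fell and none rose in the ileum (median -0.81), and 79 rose and none fell in the liver (median 0.48). Opposite shifts, higher in the liver, numbered 79 of 85, where 18% of all genes were in that class, and 50 of 85 after rescaling, where 4.09% were. Their summed level was 6428 to 6641 CPM in Villin-Cre ileum and 11350 to 11525 CPM in floxed ileum, against 12675 to 12755 CPM in Villin-Cre liver and 9010.03 to 9150.4 CPM in floxed liver. Many of these genes have processed pseudogenes, so single members are uncertain. The 13 genes encoded in mitochondria all fell in the ileum (median -0.63), where 30.7% of all genes fell. Their share of reads there was 2.30 to 2.80% in Villin-Cre and 3.62 to 4.45% in floxed libraries. In the liver 2 rose and none fell (median 0.06), where 45.1% of all genes rose and 11.7% fell. After rescaling 10 fell in the ileum, and 6 fell and 1 rose in the liver. Those that fell in both were then 6, beside 4.16% of all genes. The transferrin receptor Tfrc, which takes up iron, had 46.5, 45.4 and 42.4 CPM in Villin-Cre ileum, against 206, 227 and 192 CPM in floxed ileum, and rose by 0.76 in the liver.

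Markers of cells other than epithelium and hepatocytes moved with genotype beside these groups. The shares over all genes were 9.61% higher and 30.7% lower in the ileum, and 45.1% higher and 11.7% lower in the liver. In the ileum 7 of 12 macrophage markers tested fell (median -0.42; summed level 242 to 249 CPM in Villin-Cre, 331 to 341 CPM in floxed), 2 of 12 after rescaling. In the liver all 16 tested rose (median 1.05; summed level 2360 to 2402 CPM in Villin-Cre, 1084 to 1098 CPM in floxed), 13 of 16 after rescaling. All 8 neutrophil and monocyte markers tested in the liver also rose (median 1.42), and 10 of 13 hepatocyte markers fell and 2 rose there (median -0.60). Of T and NK cell markers, 12 of 16 rose and none fell in the ileum (median 0.90; summed level 221 to 231 CPM in Villin-Cre, 91.5 to 96.8 CPM in floxed), and 4 of 14 rose and 1 fell in the liver (median 0.30). Gzma, granzyme A, had 48.2, 49.8 and 49.2 CPM in Villin-Cre ileum, against 12.6, 13.6 and 11.5 CPM in floxed ileum, and did not exceed 0.783 CPM in any vehicle liver library. Among red cell genes, 5 of 6 fell and 1 rose in the ileum, and 5 of 7 rose and 1 fell in the liver. Hba-a1, a globin gene with a near-identical copy, was at -1.63 and 1.01. In the ileum the 8 liver parenchyma genes summed to 140.3 to 148 CPM in Villin-Cre and 376 to 394 CPM in floxed libraries, of which Cps1, also a gene of enterocytes, gave 101 to 109 CPM in Villin-Cre and 318 to 340.4 CPM in floxed libraries. The part of these cell types in the other results was not tested.

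**Figure D4:**
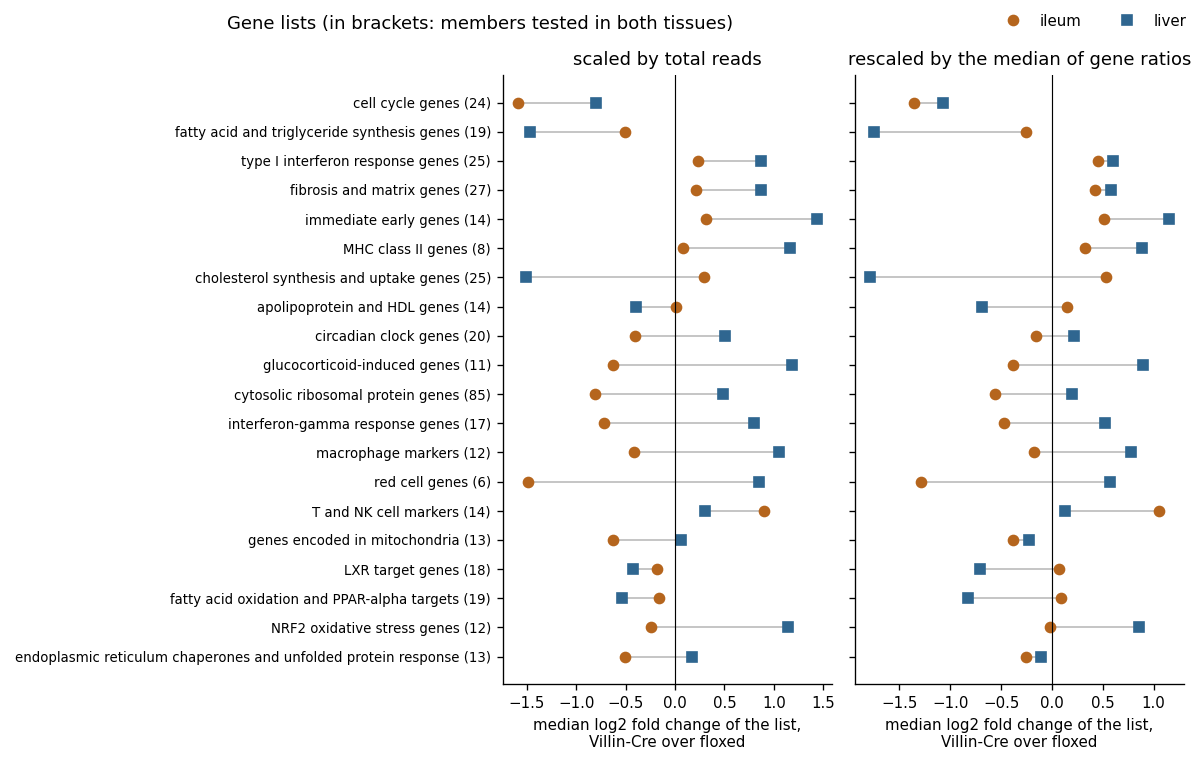
Median log2 fold change of 20 gene lists in ileum (brown circles) and liver (blue squares), Villin-Cre over floxed, with libraries scaled by total reads (left) and rescaled by the median of gene ratios (right). The cholesterol list has its median above 0 in the ileum and below 0 in the liver under both scalings, ribosomal and interferon-gamma genes the reverse, and cell cycle and fatty acid synthesis genes lie below 0 in both tissues.

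Other genes changed in the ileum with little movement in the liver. Zfp652, a zinc finger protein (chr11:95712673-95835115), had 2547, 2582 and 3007 CPM in Villin-Cre ileum, against 100.1, 105 and 94.3 CPM in floxed ileum (log2 fold change 4.75 ± 0.12). Liver levels were 128, 131 and 125 CPM in Villin-Cre libraries and 140.0, 134 and 140.1 CPM in floxed libraries (-0.11). Atg3, an enzyme of autophagosome formation, had 334, 362 and 427 CPM in Villin-Cre ileum, against 32.1, 32.4 and 31.3 CPM in floxed ileum, and Snx33, a sorting nexin, had 117, 123 and 124 CPM in Villin-Cre ileum, against 12.0, 13.1 and 11.3 CPM in floxed ileum. In the liver Atg3 was at -0.10 and Snx33 at 0.05. Zfp652, Atg3 and Snx33 also passed with close libraries averaged. Kirrel3 and Krba1 rose by 1.84 and 1.77. Zfp652, Atg3, Snx33 and Krba1 counted as lower in the liver after rescaling.

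Among the ileum genes that fell, Carns1, carnosine synthase, had 3.60, 3.80 and 2.96 CPM in Villin-Cre libraries, against 91.6, 86.5 and 88.4 CPM in floxed libraries, and Hps4, a factor of lysosome-related organelles, had 21.8, 20.7 and 21.5 CPM in Villin-Cre libraries, against 391, 328 and 411 CPM in floxed libraries. Their log2 fold changes had wide errors (-4.50 ± 0.95 and -4.10 ± 0.90). Gata4, the transcription factor that marks the upper small bowel, had 5.09, 4.38 and 5.01 CPM in Villin-Cre ileum, against 28.3, 33.6 and 32.6 CPM in floxed ileum (-2.59 ± 0.14), and was at -0.15 in the liver. Nr1i3, the xenobiotic receptor CAR, fell by 1.71 in the ileum and Iigp1 by 1.75. Iigp1 counted as lower in both tissues after rescaling.

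Another set of genes changed in the liver with little movement in the ileum. Slc7a11, the cystine importer, had 1.18, 0.701 and 1.18 CPM in Villin-Cre ileum, against 1.19, 0.941 and 0.946 CPM in floxed ileum, and 234, 241 and 248 CPM in Villin-Cre liver, against 11.9, 14.2 and 13.5 CPM in floxed liver (log2 fold change 4.14 ± 0.13). Of 12 NRF2 target genes, 2 rose and 5 fell in the ileum (median -0.24) and 8 rose and 2 fell in the liver (median 1.14), where 9.61% and 30.7% of all genes rose and fell in the ileum and 45.1% and 11.7% in the liver. After rescaling 3 rose and 2 fell in the ileum (median -0.02). Srxn1, sulfiredoxin, rose in both, by 0.36 in the ileum and 2.51 in the liver. Lgals3, galectin-3, had 145, 149 and 161 CPM in Villin-Cre ileum and 142, 156 and 161 CPM in floxed ileum, with 194, 185 and 181 CPM in Villin-Cre liver and 15.2, 15.1 and 16.6 CPM in floxed liver. After rescaling it counted as higher in both tissues. Abcc4, an exporter of bile acids, had 191, 188 and 197 CPM in Villin-Cre liver and 25.1, 25.3 and 27.6 CPM in floxed liver. Rin1 rose by 3.28, Adam8, a protease of myeloid cells, by 2.80 and Cxcl14, a chemokine, by 2.60. Those that fell were Sc5d, of the last steps of cholesterol synthesis (-2.11, and higher in the ileum after rescaling), Gamt, which makes creatine (-1.92), Tlcd2 (-2.22), P2ry4 (-2.53), Dclk3 (-2.11) and Rab36 (-1.93). Mmp7, the protease matrilysin, was opposite, at -2.20 in the ileum and 3.23 in the liver, where it had 19.5, 23.0 and 23.6 CPM in Villin-Cre libraries and 2.03, 1.84 and 1.84 CPM in floxed libraries.

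The 12 GW3965 libraries, which entered neither side of the vehicle comparison, gave the genotype effect again under the agonist. In each tissue 1 floxed GW3965 library stood apart from its group, by 9.10 to 9.33 times the counting variance in the ileum and 11.8 to 12.0 times in the liver, against 2.62 to 3.50 times for the other pairs. Abca1 was lower under GW3965 as well, at -2.74 in the ileum and -0.31 in the liver. Of the 1392 genes shifted the same way, 393 passed with that direction in both tissues under GW3965. The share of all genes that passed in the same direction in both tissues under GW3965 was not counted, so the 393 cannot be set against it. Without the 2 libraries that stood apart, which also enter the shared estimate of spread, 1902 genes shifted the same way in vehicle libraries, 4053 oppositely, and 560 of the same-way genes passed again in both tissues. The 67 genes lower by at least 2-fold in both tissues separated by tissue. In the ileum 62 of them were lower and 3 higher (median -1.71, against -1.49 in vehicle libraries), where 39.8% of all genes were lower. In the liver 22 were lower and 20 higher (median 0.17, against -1.52 in vehicle libraries), where 14% of all genes were lower and 42.8% higher. The cell cycle list had 22 of 24 lower in the ileum (median -1.94) and 11 higher and none lower in the liver (median 0.47), and Cdc20 was at -2.10 in the ileum and -0.12 in the liver. The 25 genes higher in both did the opposite, with 9 higher and 6 lower in the ileum (median 0.04, against 1.20 in vehicle libraries; 13.7% of all genes were higher) and 18 higher and none lower in the liver (median 1.17, against 1.52).

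Genes with opposite shifts of at least 2-fold were followed in the same libraries, without rescaling. Over all genes tested in both tissues, 13.7% were higher and 39.8% lower in the ileum under GW3965. In the liver 42.8% were higher and 14% lower. Of the 70 genes lower in the ileum and higher in the liver, 45 were lower and 3 higher in the ileum and 61 were higher and 1 lower in the liver, with 41 past the threshold on both sides. Of the 19 higher in the ileum and lower in the liver, 9 were higher and 3 lower in the ileum and 16 were lower and none higher in the liver. Mt2 kept both directions (-1.48 in the ileum and 5.66 in the liver), Fkbp5 was higher in both (1.71 and 1.24), and Per1 was at -0.29 in the ileum and 1.93 in the liver. Zfp652, with its vehicle log2 fold change of 4.75 in the ileum, was at -0.74 there under GW3965, and Gata4, at -2.59 in vehicle ileum, was at 1.60. Saa1, higher in both tissues in vehicle libraries, was at -6.16 in the ileum and 1.33 in the liver. The cholesterol list had 9 higher and 5 lower in the ileum (median 0.02) and 21 of 25 lower in the liver (median -1.13). The ribosomal list had 81 of 85 lower in the ileum and 79 of 85 higher in the liver.

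Mt1 was the single gene that differed by at least 4-fold in the same direction in all 4 genotype comparisons, at 2.40 in vehicle ileum, 3.72 in vehicle liver, 4.08 in GW3965 ileum and 4.39 in GW3965 liver. At 2-fold, Mt1, Cldn4 and Rsad2 (3 genes) were higher, and Inmt, Pdk1, Shmt1, Mthfd1, Hpd, Aspg, E2f8, D630039A03Rik, Cenpm and Spc24 (10 genes) were lower, a set named after its values were seen. Shmt1 and Mthfd1 are enzymes of folate metabolism, Inmt methylates amines, Pdk1 inhibits pyruvate dehydrogenase and Hpd degrades tyrosine. The vehicle and GW3965 comparisons share no library.

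**Figure D5:**
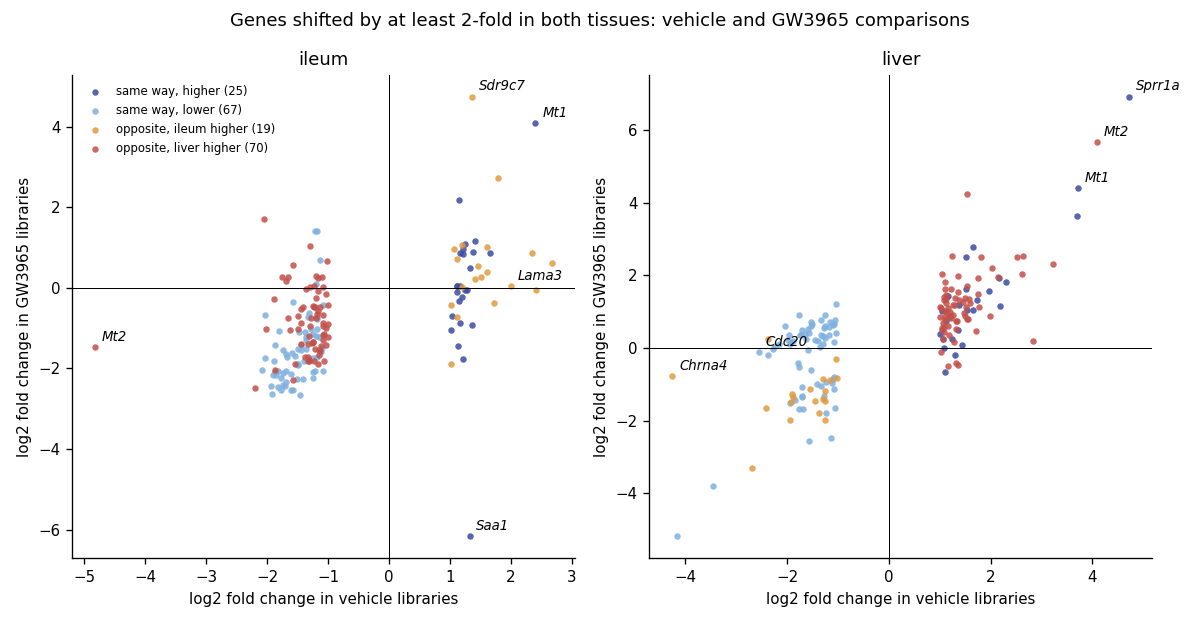
Log2 fold change of Villin-Cre over floxed in vehicle libraries (x axis) and in GW3965 libraries (y axis) for the genes shifted by at least 2-fold in both tissues, in the ileum (left) and in the liver (right), coloured by class. In the liver the genes lower in both tissues spread around 0 under GW3965 (median 0.17), whereas in the ileum most stay below 0 (median -1.71).

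Position on the chromosomes was described because genes near a transgene such as Cre can differ between genotypes by descent. Both genotypes carried the floxed Abca1 alleles, so the counts near Abca1 are description only and cannot show such a difference. With Abca1 itself counted, 15 of 139 genes tested within 10 Mb of it on chromosome 4 shifted the same way (10.8%, against 8.53% of all genes). The 1 that did so by at least 2-fold was the predicted gene D630039A03Rik at chr4:57908483-57916297. Over 234 windows of 10 Mb with at least 20 genes tested, no window held more than 3 of the 92 genes and 166 held none. The share of same-way genes by chromosome was 5.5 to 12.0%. Of 6 genes known to vary between C57BL/6 substrains or strains, Wdfy1 rose in both tissues (0.45 and 1.67) and Glo1 fell in both (-0.77 and -0.95). Glo1 averaged 17.1 ± 0.997 CPM in Villin-Cre ileum and 29.5 ± 1.13 CPM in floxed ileum, and 63.7 ± 0.726 CPM in Villin-Cre liver and 124 ± 2.74 CPM in floxed liver (SD, n = 3). Nnt rose in the liver (0.70) and did not pass in the ileum (0.20). Of the 6, 3 did not pass in the ileum and 3 did not in the liver, and 1 was lower in the ileum alone. Of all genes, 4.62% rose and 3.91% fell in both tissues. After rescaling 2 of the 6 rose and 1 fell in both, beside 6.22% and 4.16% of all genes.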

How the data were processed

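RNA was measured by sequencing in 24 libraries of ileum and liver. Per the labels' protocols, RNA came from RNeasy kits, ribosomal RNA was removed with RNase H, and cDNA was primed with random hexamers. Per the submitters' processing notes, reads were handled with STAR 2.5.1a and with featureCounts 1.4.6-p5 from Subread on GRCm38. The sources used here give neither a strand setting nor the log formula. The authors deposited 1 table of log2 values per tissue. Of 40757 entries, 276 repeats were dropped. The lowest value, -5.62, stood for 0 reads in each library, and subtracting it on the linear scale gave CPM values that were whole multiples of 1 read (tolerance 0.05 reads) for 100% of the low values tested.

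Genes with at least 0.5 CPM in 3 libraries of a tissue were tested with limma 3.58.1 (R 4.3.3) on log2(CPM + 0.5), so fold changes of low genes are understated. Each tissue was fitted over its 12 libraries, and the difference between tissues over all 24, with 1 mean per group, empirical Bayes with trend and Benjamini-Hochberg adjustment over all genes tested (threshold 0.05). A gene counted as shifted in 1 tissue only if the difference also passed. The procedure was tested on simulated data. Fold changes are log2, Villin-Cre over floxed, with SE.

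Named genes were Abca1, up to 12 genes each way shifted the same way and 8 oppositely by at least 2-fold with no overlap between groups and at least 1 CPM, ranked by the smaller change, up to 6 each way changed in 1 tissue and within 0.2 in the other, genes with 4-fold changes in all 4 comparisons, and members of the described lists. Some of these genes are not reported here. Members and lists were chosen with earlier results of these data known. Gene positions are from GENCODE M21 and promoters from RefSeq (both GRCm38). Alternatives were rescaling, no filter, vehicle libraries alone, a pseudocount of 2, voom on recovered reads, log2 values as deposited, the replicate number as a block, averaged close libraries, each library left out and, chosen after seeing the data, 2 floxed GW3965 libraries left out that stand apart from their groups.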

Additional observations from a re-analysis of the deposited data

Results flagged for a closer look

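Results are given here because the genotype effect in the ileum differed from that in the liver by the test of the difference itself (limma over 24 libraries, adjusted over 16322 genes). The effect was above the liver's at 1235 genes and below it at 8426, and at 3289 and 3078 after rescaling. Values are ileum minus liver on the log2 scale, and a positive value means that the effect of Villin-Cre over floxed was higher in the ileum. Groups of 3 libraries were not screened gene by gene for a single outlying library. The 2 floxed GW3965 libraries that stand apart as a whole are given with the GW3965 comparisons.

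Among genes that moved the same way, the difference reached -0.43 for Abca1, -1.32 for Mt1, -0.64 for Sh2d6, -2.28 for Cldn4, -3.39 for Sprr1a and -0.95 for Rsad2, and 0.61 for Cenpf and 0.80 for Cdc20. The difference for Abca1 did not pass after rescaling (0.10). Among genes higher in the ileum and lower in the liver it was 6.67 for Chrna4, 5.07 for G6pc, 3.89 for Lama3, 4.10 for Pnpla3, 3.55 for Hsd3b3, 3.15 for Npas2, 3.23 for Slc2a2 and 2.74 for Sdr9c7. Among genes lower in the ileum and higher in the liver it was -8.91 for Mt2, -5.43 for Mmp7, -3.63 for Per1, -3.67 for Ciart, -3.44 for Tgtp1, -3.64 for Fkbp5, -3.39 for Myc and -2.93 for Cebpd, a transcription factor of the acute phase response.

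Among genes that changed in the ileum the difference was 4.86 for Zfp652, 3.62 for Atg3, 3.22 for Snx33, 1.99 for Kirrel3, 1.76 for Krba1 and 1.71 for Lamb3, and -4.44 for Carns1, -4.21 for Hps4, -2.43 for Gata4, -1.87 for Nr1i3 and -1.85 for Iigp1. Among genes that changed in the liver it was -4.15 for Slc7a11, -3.55 for Lgals3, -3.46 for Rin1, -2.96 for Adam8, -2.85 for Abcc4 and -2.72 for Cxcl14, and 2.41 for Tlcd2, 2.35 for P2ry4, 2.17 for Sc5d, 2.12 for Dclk3, 2.09 for Gamt and 2.02 for Rab36. With close libraries averaged, the difference passed for G6pc, Lama3, Hsd3b3, Mt2, Zfp652, Atg3, Snx33 and Lgals3 and for none of the other genes named here.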

How the results depend on the processing

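Averaging libraries that lie close together to 1 unit left 6 genes called in the ileum and 206 in the liver, with 1 gene shifted the same way (also by 2-fold, and also in both GW3965 comparisons), 1 oppositely (also by 2-fold), 11 in 1 tissue, 14 with the difference called and 0 same-way genes within 10 Mb of Abca1. The main counts were 7527, 9951, 1392, 3177, 5486, 9661 and 15. That fit has 1 residual degree of freedom a tissue, which comes from the 2 floxed GW3965 units. Lone units, among them every vehicle group, are assumed to vary like those. Rescaling gave 1539 genes shifted oppositely and 6367 with the difference called. Genes shifted by at least 2-fold numbered 92 the same way and 89 oppositely; a pseudocount of 2 gave 46 and 39, and the deposited log2 values and voom each gave 150 oppositely. The cause of these changes was not tested. Leaving out a library gave 6343 to 8758 genes in the ileum, 8926 to 11210 in the liver, 1186 to 1902 the same way, 2720 to 4053 oppositely, 5175 to 5520 in 1 tissue, 9130 to 10474 for the difference, 89 to 97 and 86 to 100 by 2-fold, 343 to 560 in both GW3965 comparisons and 11 to 19 near Abca1; the highest of most came without the 2 floxed GW3965 libraries that stand apart. The replicate numbers did not pair the libraries (correlations of deviations -0.00, 0.12 and 0.25 in the ileum and 0.03, -0.11 and 0.00 in the liver), and a fit with the replicate block gave 7495 genes in the ileum, 9916 in the liver, 1392 the same way and 3176 oppositely. Of 146 values of named genes by tissue, 95 no longer passed with close libraries averaged, and 7 came to pass after rescaling. Of those 7, 4 took the other sign: Snx33 (-0.23), Krba1 (-0.26) and Iigp1 (-0.19) in the liver and Lgals3 (0.23) in the ileum. None of the 122 values that passed changed its sign under any alternative run; 17 that did not pass took the other sign, still without passing, under at least 1. Depth limits genes under about 1 CPM, such as Sh2d6 in floxed liver, most.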

Other observations

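Genes outside the rule for named genes also changed by large amounts in the ileum, and 3 are given here, chosen after their values were seen. Their errors were estimated over all 12 libraries of a tissue, GW3965 groups included. Bbof1, named for a basal body orientation factor, averaged 4.66 CPM in Villin-Cre ileum and 404.7 CPM in floxed ileum (log2 fold change -6.29 ± 1.14, SE, and -7.01 between GW3965 libraries), with 0.926 CPM in Villin-Cre liver and 0.604 CPM in floxed liver, which did not pass. Fbxl15, an F-box protein gene, averaged 7.54 CPM in Villin-Cre ileum and 153 CPM in floxed ileum (-4.27 ± 1.00, and -4.46 between GW3965 libraries), with 6.14 CPM in Villin-Cre liver and 4.60 CPM in floxed liver, which did not pass. Zfp607b, a zinc finger gene, averaged 16.9 CPM in Villin-Cre ileum and 0.471 CPM in floxed ileum (4.18 ± 0.21, and -0.64 between GW3965 libraries), with 1.35 CPM in Villin-Cre liver and 0.691 CPM in floxed liver (0.64 ± 0.20), which passed but not after rescaling.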
